A study of Mus musculus with 12 samples.

Results

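The genes described here are the 10 genes of the platelet-derived growth factor (PDGF) axis and of the pericyte, which were taken by symbol from a table of 28689 genes measured in cultured mouse lung endothelial cells (MLECs). They are the ligand genes Pdgfa, Pdgfb, Pdgfc and Pdgfd, the receptor genes Pdgfra and Pdgfrb, and the pericyte genes Rgs5, Cspg4, Kcnj8 and Abcc9. All 10 were found in the table. The sequenced RNA fills 12 libraries, divided evenly between CTR and dKO mice (6 each), to compare endothelial cells of mice with and without an induced deletion of the transcription factor genes Sp1 and Sp3. The dKO mice were VE-CAD-CreERT2+/Sp1 fl/fl/Sp3 fl/fl, so that Cre was driven by the promoter of VE-cadherin, an endothelial gene. The CTR mice were VE-CAD-CreERT2-/Sp1 fl/fl/Sp3 fl/fl littermates, which carry the same floxed alleles and which the labels call WT. Both groups received tamoxifen. The cells came from adult lungs and were selected with beads against CD31, grown to confluency, and selected again with beads against intercellular adhesion molecule 2. How many mice stand behind a library is not given, so the p-values below measure the spread between libraries, which may be partly technical.

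PDGF ligands are secreted as dimers and bind receptor tyrosine kinases on neighbouring cells. In the vessel wall, endothelial cells release PDGF-BB, and mural cells (pericytes and smooth muscle cells) that carry PDGF receptor beta are recruited by it and held at the endothelium. PDGF receptor alpha marks fibroblasts and other mesenchymal cells of the lung. Pericytes lie within the basement membrane of capillaries and are usually recognised by several genes at once, since each of these genes is also active in other cells.

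Sp1 and Sp3 bind GC boxes, so the RefSeq promoters of the members (GRCm38.p6, 250 bases before to 50 bases after the start) were searched for the letters GGGCGG or CCGCCC, which covers both strands. The table held 9 promoters of 8 members, and no entry for Pdgfb or Pdgfrb. A GC box lay in 4 of the 9, namely both starts of Pdgfa and those of Abcc9 and Cspg4, and the other 5 (Pdgfc, Pdgfd, Pdgfra, Rgs5 and Kcnj8) held none. Among all 32851 promoters of the same length, 35.7% held at least 1. Of the 250 bases before the start, 250 of Kcnj8, 246 of Pdgfd and 250 of 1 Pdgfa start lay within annotated exons. For these starts little or no sequence outside exons was searched. Of Abcc9, 158 of the 250 bases lay in exons and its box was among them, as were the boxes of the wholly exonic Pdgfa start. Regions of a ligand, a receptor and 2 pericyte genes are printed to show promoters with and without a box, each cut to the stretch that lies outside every annotated exon and placed on GRCm39 by an exact match. They are given 5′ to 3′ on the strand of the gene in lower case, with the GC boxes in capitals. Pdgfa lies on the minus strand at chr5:138980037-138980153, Pdgfra on the plus strand at chr5:75312662-75312833, Rgs5 on the plus strand at chr1:169482820-169483035 and Cspg4 on the plus strand at chr9:56772138-56772316. The stretches of Pdgfa and Pdgfra lie inside the annotated spans of their genes, before a RefSeq start further in. Those of Rgs5 and Cspg4 end directly before the annotated start of the gene.
Pdgfa: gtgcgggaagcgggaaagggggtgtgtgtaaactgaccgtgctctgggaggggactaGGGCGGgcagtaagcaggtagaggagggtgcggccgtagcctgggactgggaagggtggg
Pdgfra: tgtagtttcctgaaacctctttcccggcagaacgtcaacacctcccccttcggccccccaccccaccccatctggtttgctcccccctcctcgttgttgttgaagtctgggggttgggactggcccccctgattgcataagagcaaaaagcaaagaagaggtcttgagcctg
Rgs5: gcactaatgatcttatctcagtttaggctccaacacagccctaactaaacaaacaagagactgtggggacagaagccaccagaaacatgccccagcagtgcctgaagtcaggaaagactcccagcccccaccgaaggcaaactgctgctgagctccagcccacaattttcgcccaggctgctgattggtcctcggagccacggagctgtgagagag
Cspg4: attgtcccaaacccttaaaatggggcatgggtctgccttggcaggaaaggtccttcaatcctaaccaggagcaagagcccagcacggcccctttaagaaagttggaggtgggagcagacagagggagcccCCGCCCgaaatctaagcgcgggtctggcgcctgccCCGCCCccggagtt
The box of Pdgfa began 60 bases before the RefSeq start, and those of Cspg4 began 120 and 85 bases before it. A match of letters describes the window and does not show that a factor binds there.

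A library held between 15523054 and 17938286 fragments. Values are FPKM (the fragments of a gene divided by its length in kilobases and by the library total), which is a level per length and lets genes be compared. Sp1, the targeted gene, was between 19.4 and 23.7 FPKM in CTR libraries and between 8.42 and 12.1 FPKM in dKO libraries, with no overlap. Sp3, the other targeted gene, was between 24.2 and 31.1 FPKM in CTR and between 22.5 and 26.9 FPKM in dKO, and the limma adjusted p of its log2 fold change of -0.14 was 0.0902. Sp1 was thus lower but not absent in the libraries labelled dKO, and the Sp3 RNA level by itself did not bear out that label. Gene-level values do not show which exons were transcribed. By immunofluorescence, the paper reports less Sp1 and Sp3 protein in the aortic endothelium of dKO mice, which is another measure and another vessel. Its supplement also lists blots of Sp1 and Sp3 in isolated endothelial cells of both groups. The legend names these cells aortic, the main text partly MLECs, and neither puts the outcome for Sp1 and Sp3 in words. In what follows, dKO stands for the libraries labelled so. Endothelial genes were present, with Cdh5 (VE-cadherin) between 66.8 and 162 FPKM. Some genes of other cells stood higher and others lower, such as Myh11 of smooth muscle at a CTR mean of 5.19 FPKM. Col1a1, a collagen of fibroblasts, was 1173 ± 65.1 FPKM (SD, n = 6) in CTR, and Acta2, the actin of smooth muscle and myofibroblasts, was 773 ± 322 FPKM (SD, n = 6). The libraries labelled as endothelial cells therefore also held the RNA of mesenchymal genes, and the members are described for the whole culture. Fewer cells of a type and less RNA per cell cannot be told apart in such bulk libraries. The labels' extraction note speaks of retinas, but 5 retina genes in the table, chosen after the data were seen, summed to at most 0.392 FPKM in any library.

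Of the 10 members, 4 rose in dKO (Pdgfa, Pdgfb, Pdgfd and Rgs5), 2 fell (Pdgfc and Kcnj8), and 3 did not pass the test (Pdgfra, Pdgfrb and Cspg4). The test was limma on log2(FPKM + 1), with p adjusted over all 12467 genes that reached 1 FPKM in at least 6 libraries. Abcc9 was under that minimum and was tested separately. Over all genes tested, 20.4% were higher and 32.6% lower in dKO, 53.1% in all, so 6 of 9 members is a share near that of any gene. The groups did not overlap for 3 members, with Pdgfb and Pdgfd above and Kcnj8 below. That was so for 27.4% of all genes tested, 11.3% above and 16.1% below. Fold changes below are differences of log2(FPKM + 1), so those of low genes are understated. Their median was 0.22 over the 9 members tested and -0.10 over all genes tested. The counts and this median include Rgs5, which reached 1 FPKM in 1 CTR and 5 dKO libraries. They leave out Abcc9, which reached it in 5 CTR and 0 dKO libraries and was lower in dKO, so the minimum favoured a rise here.

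**Figure D1:**
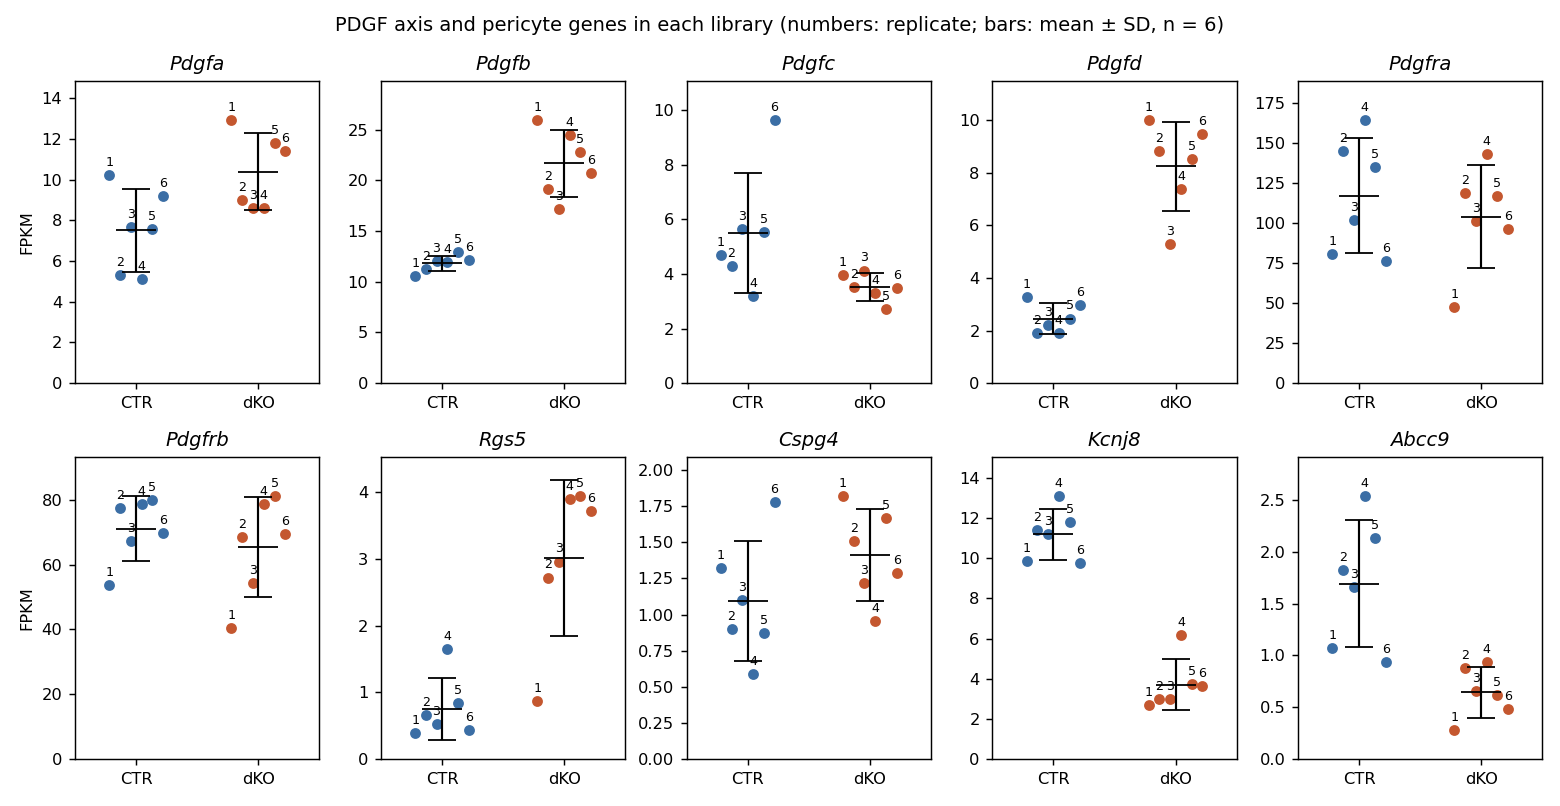
FPKM of each of the 10 genes (vertical axes, each from 0) in the 6 CTR and 6 dKO libraries, with the replicate number above each point and bars for the mean ± SD. All dKO points lie above the CTR points for Pdgfb (17.2 to 25.9 against 10.6 to 12.9) and Pdgfd, all lie below for Kcnj8 (2.68 to 6.19 against 9.78 to 13.1), and the groups overlap for the other genes.

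In CTR libraries the receptors were the most abundant members. Pdgfra averaged 117 FPKM and Pdgfrb 71.1 FPKM, followed by Pdgfb (11.8), Kcnj8 (11.2), Pdgfa (7.51), Pdgfc (5.51), Pdgfd (2.46), Abcc9 (1.7), Cspg4 (1.09) and Rgs5 (0.75 FPKM). Neighbours in this order overlapped in their ranges over the libraries, except Pdgfrb and Pdgfb. The dKO order was Pdgfra (104), Pdgfrb (65.5), Pdgfb (21.7), Pdgfa (10.4), Pdgfd (8.25), Kcnj8 (3.7), Pdgfc (3.53), Rgs5 (3.01), Cspg4 (1.41) and Abcc9 (0.643 FPKM). There the ranges of neighbours did not overlap between Pdgfrb and Pdgfb, between Pdgfb and Pdgfa, or between Cspg4 and Abcc9. In mean level Pdgfd had moved above Kcnj8 and Pdgfc, and Rgs5 above Cspg4 and Abcc9.

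Pdgfb encodes the PDGF-B chain, the ligand by which endothelium attracts pericytes (chr15:79880009-79899181, minus strand, GRCm39, ENSMUSG00000000489). Its level was between 10.6 and 12.9 FPKM in CTR libraries, and in dKO libraries it ran from 17.2 to 25.9 FPKM around a median of 21.8. The CTR libraries lay close together and every dKO library stood above them, with replicate 1 the highest and replicate 3 the lowest. The mean rose from 11.8 ± 0.779 to 21.7 ± 3.3 FPKM (SD, n = 6 each), 1.84-fold. The log2 fold change was 0.82 with an SE of 0.09, and the limma adjusted p was 1.75e-05. These values rest on 3529 fragments in CTR and 6491 fragments in dKO.

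Pdgfd encodes the PDGF-D chain, which is secreted as a latent protein and, once cut, acts mainly through PDGF receptor beta (chr9:6168240-6379265, plus strand, GRCm39, ENSMUSG00000032006). Its CTR levels were 1.89 at the lowest, 2.34 at the median and 3.29 FPKM at the highest, and its dKO levels 5.29, 8.67 and 9.99 FPKM. No dKO library came near the CTR range, and replicate 3 was again the lowest of them. The mean rose 3.35-fold, from 2.46 ± 0.574 to 8.25 ± 1.7 FPKM (SD, n = 6 each). With a log2 fold change of 1.41 (SE 0.14) and a limma adjusted p of 7.51e-06, this was the largest rise among the members on the scale tested. By the ratio of means Rgs5 rose further, from a lower level.

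Pdgfa encodes the PDGF-A chain, which acts through PDGF receptor alpha (chr5:138961758-138983435, minus strand, GRCm39, ENSMUSG00000025856). It was at 5.1, 7.63 and 10.2 FPKM (lowest, median, highest) in CTR and at 8.58, 10.2 and 12.9 FPKM in dKO. The groups overlapped, and 3 dKO libraries (replicates 1, 5 and 6) stood above the highest CTR library. The mean rose from 7.51 ± 2.04 to 10.4 ± 1.9 FPKM (SD, n = 6 each), with a log2 fold change of 0.44 (SE 0.16) and a limma adjusted p of 0.0337. This call was lost when 1 library was left out, at 0.36 without CTR replicate 2 (limma adjusted p = 0.0755), 0.35 without CTR replicate 4 (0.0662), 0.38 without dKO replicate 1 (0.0677), 0.40 without dKO replicate 5 (0.0675) and 0.41 without dKO replicate 6 (0.0665). The gene 6330403L08Rik on the opposite strand covers 2552 bases of its GENCODE vM39 exons, 37.75% of them. Without strand the reads of the pair cannot be told apart. Those exons total 6761 bases, but the length behind the FPKM of Pdgfa came out as 3119, so the share in the gene model used is not known. 6330403L08Rik averaged 1.05 FPKM in CTR and 1.32 FPKM in dKO (log2 fold change 0.18, limma adjusted p = 0.0775).

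Pdgfc, the gene of the PDGF-C chain, which also needs cleavage and acts mainly on PDGF receptor alpha, was the ligand gene that fell (chr3:80943668-81121473, plus strand, GRCm39, ENSMUSG00000028019). Its levels were 3.21, 5.12 and 9.63 FPKM (lowest, median, highest) in CTR and 2.73, 3.51 and 4.13 FPKM in dKO. The groups overlapped, CTR replicate 6 stood well above all others, and only dKO replicate 5 was under the lowest CTR library. The mean fell from 5.51 ± 2.21 to 3.53 ± 0.5 FPKM (SD, n = 6 each), with a log2 fold change of -0.47 (SE 0.18) and a limma adjusted p of 0.0384. The call was lost with median-of-ratios scaling (-0.40, limma adjusted p = 0.0717) and quantile normalization (-0.38, limma adjusted p = 0.0862). It was also lost without CTR replicate 3 (-0.45, limma adjusted p = 0.0704) or 5 (-0.46, 0.0671), or dKO replicate 2 (-0.47, 0.0599), 4 (-0.46, 0.0645), 5 (-0.42, 0.0788) or 6 (-0.47, 0.0619). Gm16000 overlaps 9.97% of its GENCODE vM39 exons on the opposite strand.

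**Figure D2:**
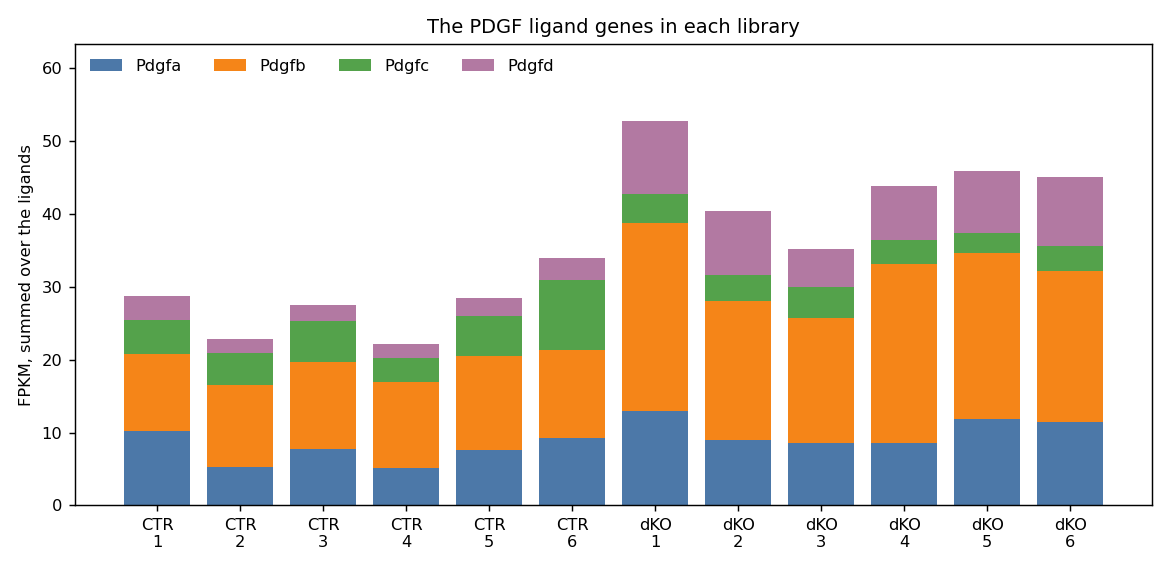
FPKM of the 4 PDGF ligand genes stacked in each library (vertical axis from 0, FPKM summed; horizontal axis, libraries by group and replicate; colours, genes). The stacks reach 22.1 to 33.9 in CTR and 35.2 to 52.8 in dKO, and Pdgfb is the largest block in every library.

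Summed per length, the ligand genes came to 22.1 to 33.9 FPKM in CTR libraries, with a median of 28.1, and to 35.2 to 52.8 FPKM in dKO libraries, with a median of 44.5. Pdgfb held the largest share of this sum in each of the 12 libraries, from 35.7% to 55.9%. The order of the smaller ligands was turned within libraries. Pdgfc was 1.43 to 3.23 times the level of Pdgfd in the CTR libraries and 0.32 to 0.781 times its level in the dKO libraries, so that Pdgfc was above Pdgfd in all CTR libraries and below it in all dKO libraries. The ratio of Pdgfd to Pdgfb was 0.16 to 0.31 in CTR and 0.302 to 0.461 in dKO, which overlap slightly. For Pdgfb to Pdgfa it was 1.04 to 2.33 in CTR and 1.82 to 2.85 in dKO. These ratios describe the same values and were not tested.

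The receptor genes did not pass the test. Pdgfra, which encodes PDGF receptor alpha (chr5:75311994-75358876, plus strand, GRCm39, ENSMUSG00000029231), was at 76.4, 119 and 164 FPKM (lowest, median, highest) in CTR and at 47.6, 109 and 143 FPKM in dKO. The groups overlapped over nearly their whole range, and dKO replicate 1 alone lay under the lowest CTR library. The means were 117 ± 36 and 104 ± 32.1 FPKM (SD, n = 6 each), with a log2 fold change of -0.18, a 95% interval of -0.74 to 0.37 and a limma adjusted p of 0.564. Without dKO replicate 1 the sign turned, to 0.02 (limma adjusted p = 0.932). Depth is not the limit here, with at least 7412 fragments in each library.

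Pdgfrb, which encodes PDGF receptor beta, the receptor of mural cells (chr18:61178212-61218133, plus strand, GRCm39, ENSMUSG00000024620), was at 53.6, 73.6 and 80.0 FPKM in CTR and at 40.5, 69.1 and 81.2 FPKM in dKO. The dKO group held both the lowest and the highest library. The means were 71.1 ± 10 and 65.5 ± 15.5 FPKM (SD, n = 6 each), the log2 fold change was -0.14 with a 95% interval of -0.49 to 0.20, and the limma adjusted p was 0.468. These intervals do not show that the receptors were equal between groups. Within a library Pdgfra was 1.09 to 2.08 times Pdgfrb in CTR and 1.18 to 1.86 times Pdgfrb in dKO. The sum of both receptors was 134 to 243 FPKM in CTR and 88.1 to 222 FPKM in dKO, above every ligand sum.

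**Figure D3:**
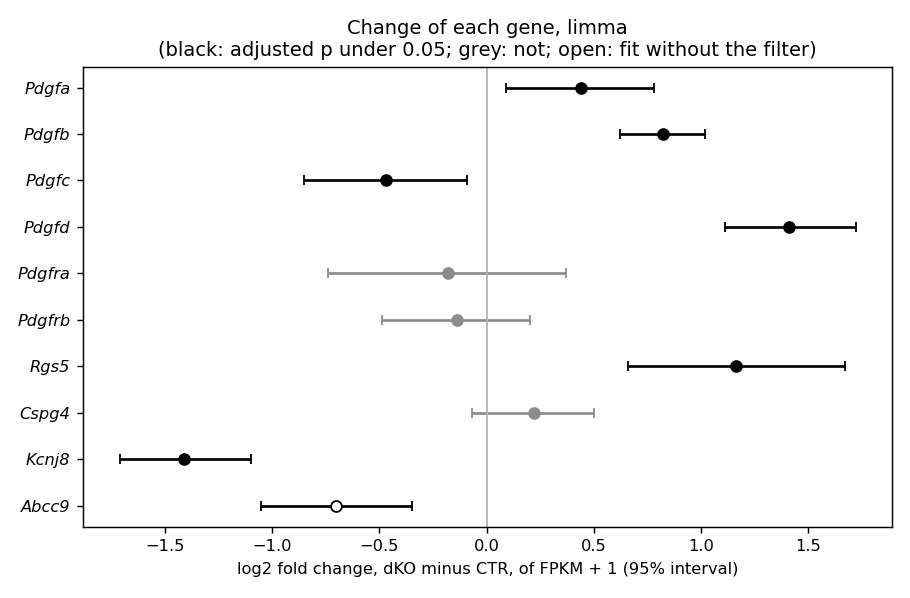
Log2 fold change of FPKM + 1, dKO minus CTR (horizontal axis), with 95% intervals for each gene (vertical axis), black for an adjusted p under 0.05, grey for others, and open for Abcc9, which was fitted without the minimum. Pdgfd (1.41) and Rgs5 (1.16) lie farthest to the right and Kcnj8 (-1.41) farthest to the left, while the intervals of Pdgfra, Pdgfrb and Cspg4 include 0.

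The pericyte genes moved in different directions. Rgs5, a regulator of G-protein signalling that is abundant in pericytes (chr1:169483036-169524887, plus strand, GRCm39, ENSMUSG00000026678), was at 0.391, 0.591 and 1.65 FPKM (lowest, median, highest) in CTR and at 0.864, 3.33 and 3.94 FPKM in dKO. The highest CTR library, replicate 4, lay above the lowest dKO library, replicate 1, and the other dKO libraries stood above all CTR libraries. The mean rose from 0.75 ± 0.47 to 3.01 ± 1.17 FPKM (SD, n = 6 each), 4.02-fold, with a log2 fold change of 1.16 (SE 0.23) and a limma adjusted p of 0.00113. Since it reached 1 FPKM in 1 CTR library and 5 dKO libraries, it entered the test mainly through the group where it was high. Its values rest on 351 fragments in CTR and 1427 in dKO, with as few as 31 in a library.

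Kcnj8 encodes Kir6.1, the pore of the vascular ATP-sensitive potassium channel (chr6:142510563-142517830, minus strand, GRCm39, ENSMUSG00000030247). It was at 9.78, 11.3 and 13.1 FPKM in CTR and at 2.68, 3.32 and 6.19 FPKM in dKO. Every dKO library was below every CTR library, and dKO replicate 4 stood apart from the other dKO libraries toward the CTR range. The mean fell from 11.2 ± 1.26 to 3.7 ± 1.28 FPKM (SD, n = 6 each), to 33.1% of the CTR mean. The log2 fold change was -1.41 (SE 0.14) with a limma adjusted p of 7.6e-06, from 2927 fragments in CTR and 978 in dKO.

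Abcc9 encodes SUR2, the sulfonylurea receptor subunit that assembles with Kir6.1, and lies next to Kcnj8 on the same strand, 15757 bases apart (chr6:142533588-142648571, minus strand, GRCm39, ENSMUSG00000030249). Its levels were 0.933, 1.75 and 2.54 FPKM in CTR and 0.277, 0.64 and 0.939 FPKM in dKO. The groups overlapped slightly, through CTR replicate 6 and dKO replicate 4, and 5 dKO libraries lay under all CTR libraries. The mean was 1.7 ± 0.617 FPKM in CTR and 0.643 ± 0.247 FPKM in dKO, 37.9% of the former, and an exact two-sided permutation test over libraries gave an unadjusted p of 0.00433 (n = 6 each). Fitted without the minimum, its log2 fold change was -0.70 with a limma adjusted p of 0.0068. An alternative added once the values were known, limma-voom with no minimum on fragments recovered from the FPKM, gave -1.40 with an adjusted p of 0.00275.

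Within libraries Kcnj8 was 5.16 to 10.5 times Abcc9 in CTR, with a median of 6.51, and 3.41 to 9.68 times Abcc9 in dKO, with a median of 6.29. The other channel genes were nearly silent in the culture. Kcnj11, the Kir6.2 pore, averaged 0.0215 FPKM in CTR and 0.0159 FPKM in dKO, and Abcc8, the SUR1 subunit, 0.0145 and 0.00242 FPKM. Of the 4 subunit genes, Kcnj8 alone passed the minimum.

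Cspg4, which encodes the proteoglycan NG2 on pericytes and smooth muscle cells (chr9:56772317-56807187, plus strand, GRCm39, ENSMUSG00000032911), was at 0.585, 0.998 and 1.78 FPKM in CTR and at 0.958, 1.4 and 1.82 FPKM in dKO. The groups overlapped, with dKO replicate 1 alone above the highest CTR library, replicate 6. The means were 1.09 ± 0.417 and 1.41 ± 0.316 FPKM (SD, n = 6 each), with a log2 fold change of 0.22, a 95% interval of -0.07 to 0.50 and a limma adjusted p of 0.185. Without CTR replicate 6 it was 0.30 with a limma adjusted p of 0.0492. Of the 12 libraries, 3 CTR and 5 dKO libraries reached 1 FPKM.

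Other pericyte genes were read from a separate list of 14, of which 11 passed the minimum. In dKO 4 of these rose and 7 did not pass the limma test, and the median log2 fold change was 0.21. Over all genes tested, 20.4% were higher and 32.6% lower. Higd1b, 1 of the 4, averaged 0.913 FPKM in CTR and was 1.22 to 2.3 FPKM in dKO, so dKO alone brought it past the minimum. Under the minimum, Vtn and Lamc3 averaged lower in dKO and Tbx18 higher. Anpep (aminopeptidase N, CD13), also a gene of myeloid cells, rose from 3.05 ± 1.11 FPKM to 19.0 FPKM, a log2 fold change of 2.30 (limma adjusted p = 1.8e-06). Cox4i2, a mitochondrial subunit found in pericytes, rose from 2.53 to 4.52 FPKM (0.70, limma adjusted p = 0.0206). The most abundant of the list, Mcam, an adhesion molecule that endothelial cells also carry, rose from 52.2 to 64.0 FPKM (0.29, limma adjusted p = 0.0132). The list summed to 93.9 to 159 FPKM in CTR and 136 to 177 FPKM in dKO, which overlap. None of the 14 was at 0 in all libraries, but Vtn (vitronectin), often used for brain pericytes, averaged 0.176 and 0.0624 FPKM.

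Around the receptors, all 27 genes of a list of co-receptors, ligand-cutting proteases and receptor signalling passed the minimum. In dKO 10 rose, 4 fell and 13 did not pass, with a median of 0.07 against -0.10 for all genes tested. Of all genes tested 20.4% were higher and 32.6% lower, 53.1% in all, so calls in this list were about as frequent as elsewhere. Plau, the urokinase that cuts latent PDGF-D, rose from 9.84 ± 1.26 to 22.4 FPKM, a log2 fold change of 1.10 (limma adjusted p = 3.86e-06). Ptprj, a phosphatase that acts on PDGF receptor beta, rose from 2.93 to 6.95 FPKM (1.00, limma adjusted p = 3.97e-05). The largest falls were Pcsk5, a proprotein convertase, from 5.21 to 1.84 FPKM (-1.08, limma adjusted p = 0.0027), and Socs3, a feedback inhibitor of cytokine signalling, from 74.6 to 50.6 FPKM (-0.57, limma adjusted p = 0.00265).

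**Figure D4:**
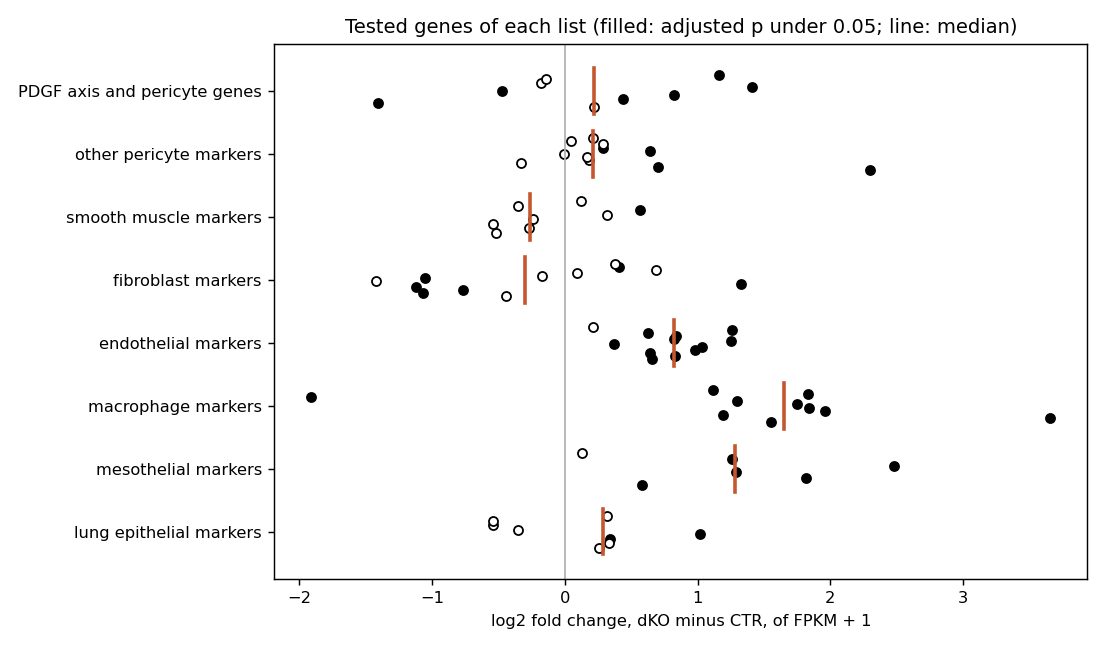
Log2 fold change of FPKM + 1, dKO minus CTR (horizontal axis), of each tested gene of 8 lists (vertical axis), filled for an adjusted p under 0.05, with a line at the median of the list. The macrophage (1.65), mesothelial (1.28) and endothelial (0.82) medians lie to the right, the smooth muscle (-0.26) and fibroblast (-0.30) medians to the left, and the members' median is 0.22.

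Genes of other cell types moved between the groups along with the members. Counts of these lists stand beside 20.4% higher and 32.6% lower over all genes tested. All 12 endothelial markers passed the minimum, 11 rose and 1 did not pass the test, and their sum was 211 to 344 FPKM in CTR and 387 to 523 FPKM in dKO. Tie1 rose from 16.1 to 39.7 FPKM (log2 fold change 1.26, limma adjusted p = 1.12e-06), Icam2, the target of the second selection, from 4.95 to 13.0 FPKM (1.25, limma adjusted p = 2.35e-05), and the most abundant, Cdh5, from 88.9 to 140.3 FPKM (0.66, limma adjusted p = 0.000527). Of 10 macrophage markers, 9 rose and 1 fell, and their sum was 848 to 1439 FPKM in CTR and 2325 to 4958 FPKM in dKO. C1qa rose from 30.3 to 398 FPKM and Cd68 from 85.2 to 339.8 FPKM, Marco fell from 119 to 43.1 FPKM, and Lyz2 was the most abundant at 746 and 1868 FPKM. Endothelial cells and macrophages are both known sources of PDGF-B. Of 6 mesothelial markers, 5 rose and 1 did not pass, led by Upk1b (6.67 to 44.7 FPKM) and Lrrn4 (1.01 to 6.22 FPKM), with Msln the most abundant in CTR and Upk1b in dKO, and sums of 28.8 to 38.6 FPKM in CTR and 66.3 to 146 FPKM in dKO. Lrrn4 was 0.332 to 1.31 FPKM in CTR and 3.81 to 8.15 FPKM in dKO, so dKO alone brought it past the minimum. No marker of these lists was at 0 in all libraries, and their part in the members' changes was not tested.

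The mesenchymal lists moved less uniformly. Their counts, too, stand beside 20.4% higher and 32.6% lower over all genes tested. Of 15 fibroblast markers 12 passed the minimum, of which 2 rose, 4 fell and 6 did not pass, with sums of 2169.9 to 2959 FPKM in CTR and 880.4 to 2028 FPKM in dKO. Col1a1 fell to 572 FPKM (-1.07, limma adjusted p = 4.75e-05) and Col3a1 from 544 to 257 FPKM (-1.12, limma adjusted p = 0.0026). In the other direction Dcn rose from 6.82 to 17.8 FPKM (1.33, limma adjusted p = 0.00033) and Npnt from 51.0 to 68.1 FPKM (0.41, limma adjusted p = 0.015). Of 10 smooth muscle markers 8 passed the minimum, 1 rose (Myh11, 5.19 to 8.2 FPKM, 0.57, limma adjusted p = 0.00529) and 7 did not pass, and the sums were 571 to 1505 FPKM in CTR and 502 to 915 FPKM in dKO. The most abundant, Acta2, averaged 518 FPKM in dKO (log2 fold change -0.52, limma adjusted p = 0.102). Without CTR replicate 4, or without dKO replicate 1, the list held 2 calls, 1 rise and 1 fall. The part of these lists in the members' changes was not tested either.

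**Figure D5:**
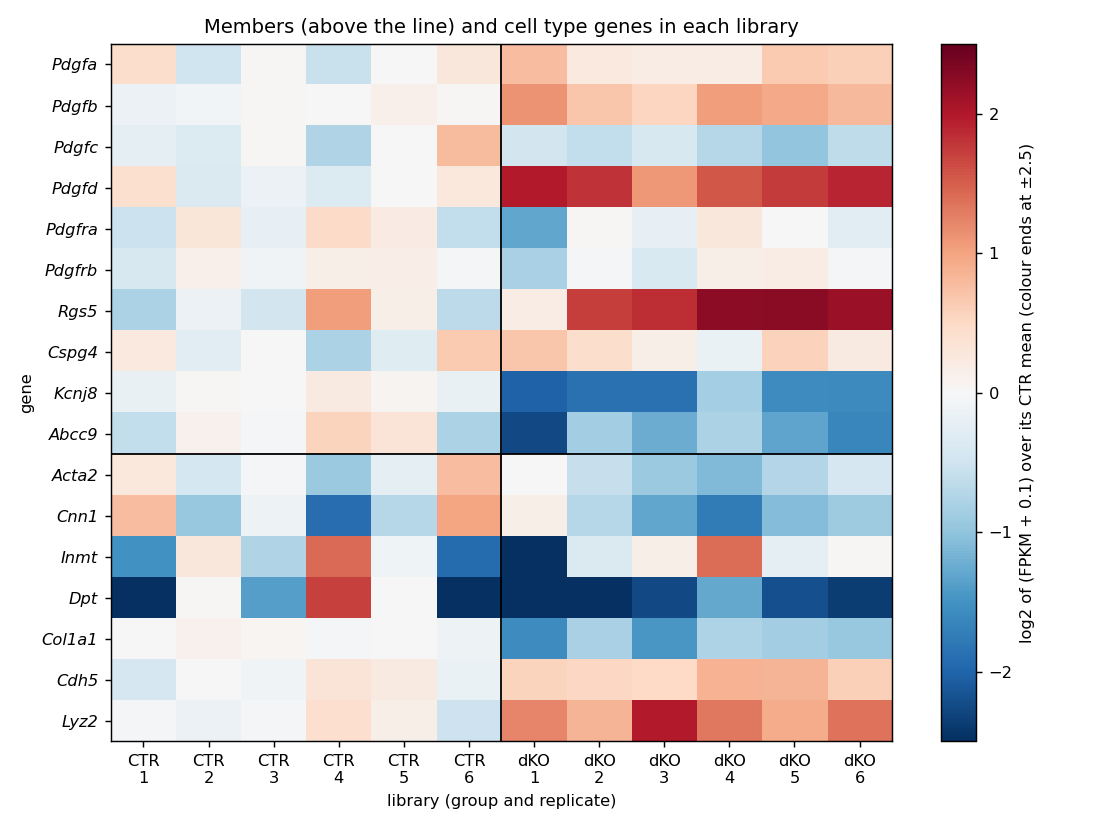
Log2 of FPKM + 0.1 over the CTR mean of each gene (colour, ending at ±2.5) for the 10 members above the line and 7 genes of other cell types below it (vertical axis) in the 12 libraries (horizontal axis). CTR replicates 1 and 6 and dKO replicate 1, with 80.4, 76.4 and 47.6 FPKM of Pdgfra, are red or pale for Acta2 and Cnn1 and dark blue for Inmt and Dpt, and CTR replicate 4 shows the reverse.

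Within each group some members and genes of other cells were high or low in the same libraries. The libraries with the least Pdgfra were CTR replicate 6 (76.4 FPKM), CTR replicate 1 (80.4 FPKM) and, in dKO, replicate 1 (47.6 FPKM). These same libraries held the most Acta2 of their group, at 1328, 926 and 781 FPKM, and the least Inmt, a lung fibroblast gene, at 13.3, 17.5 and 5.64 FPKM. The highest Pdgfra was in replicate 4 of both groups, at 164 and 143 FPKM, where Acta2 was lowest (409 and 362 FPKM) and Inmt highest (134 and 133 FPKM). Among the members, Pdgfa was highest and Rgs5 and Kcnj8 were lowest in dKO replicate 1, at 12.9, 0.864 and 2.68 FPKM, while CTR replicate 4 held the lowest Pdgfa (5.1 FPKM) and the highest Rgs5, Kcnj8 and Abcc9 of its group. Pdgfrb followed this only in part, with its highest level in replicate 5 of both groups, at 80.0 and 81.2 FPKM. The genes of this comparison were chosen after the values were seen. The pattern is a description of 12 libraries and was not tested.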

How the data were processed

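RNA of MLECs from CTR and dKO mice was sequenced in 12 libraries. After trimming (Trimmomatic), the authors mapped reads to mm39 by STAR, took the unique alignments out with sambamba and mapped those once more; for alignment, the submitters' processing notes name Bowtie2 2.2.3, HISAT2 2.1.0 and TopHat2 instead. The counting program, annotation and strand setting are not given in the sources used here. The authors deposited FPKM values for 28689 genes, one column per library. Columns were matched to groups through the labels; those of dKO are named after tamoxifen, which both groups received, and beside the labels Sp1 was the check of this match.

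Ensembl identifiers were matched to GENCODE vM39 on GRCm39, 27706 of them (96.6%). FPKM are not counts, so limma 3.58.1 (lmFit, eBayes with a trend, R 4.3.3) was run on log2(FPKM + 1) of the 12467 genes that reached 1 FPKM in 6 or more of the 12 libraries, with Benjamini-Hochberg adjustment over all of them and no covariates. The exact permutation test was two-sided over libraries, and the smallest p it can give is 0.00216. Fragments behind the values were recovered from the steps of the FPKM. All 28689 genes (100%) came out whole, within 2e-05 of a fragment or a wider margin at high counts. A gene at 0 in every library would count as whole too. Of the lengths recovered with them, 8593 equalled the exon length in GENCODE vM39. Limma-voom on the recovered fragments called 2539 genes higher and 4070 lower. Libraries of a group differed by more than counting noise, with a chi-square per degree of freedom of at least 11.3 over the 30 pairs. Copies of the members were sought with BLAST 2.17.0, and the matches found were overlapping genes on the opposite strand. The steps were tested on simulated data. Tables and plots were made with pandas 2.3.3, NumPy 2.4.6 and Matplotlib 3.10.9 in Python 3.11.15.

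The members and lists were chosen with earlier results of these data known, so no list is independent support. Every member, Sp1 and Sp3 are named, and from each other list the genes past an adjusted p of 0.05 with the 2 largest rises and the 2 largest falls, plus the most abundant gene of each cell type list. Channel subunits, 6330403L08Rik, Gm16000, Vtn, Higd1b, Lamc3, Tbx18, Inmt, Cnn1, Dpt and the retina genes were named outside this rule. The alternatives were pseudocounts of 0.1 and 0.01, no minimum, a minimum of 5 FPKM, TPM, median-of-ratios scaling, quantile normalization, limma-voom, a replicate block, permutation for each gene, and leaving out each library. Added after seeing the data were no minimum with limma-voom and no minimum with a pseudocount of 0.1.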

Additional observations from a re-analysis of the deposited data

Results flagged for a closer look

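Of 30 sets of 6 libraries checked for a single value far from the rest, 2 held one, where chance gives about 1.5 (1 in 20). Rgs5 was 1.65 FPKM in CTR replicate 4, against 0.391 to 0.836 FPKM in the other CTR libraries. Kcnj8 was 6.19 FPKM in dKO replicate 4, against 2.68 to 3.72 FPKM in the other dKO libraries.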

How the results depend on the processing

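Pdgfb (log2 fold change 0.76 to 0.90), Pdgfd (1.36 to 1.74), Rgs5 (1.09 to 2.05), Kcnj8 (-1.65 to -1.33), Abcc9 (-1.40 to -0.61), Pdgfrb (-0.22 to -0.01, never past the threshold) and Sp1 (-1.04 to -0.86) kept their direction and call in every alternative that gave a value. A minimum of 5 FPKM left Pdgfc, Rgs5, Cspg4 and Abcc9 without a value, and gave 4222 changed genes, 1708 higher and 2514 lower, in place of 6614; 2 other pericyte markers; 3 mesothelial markers; and 0 R4 RGS genes, since fewer genes were tested. The rise of Pdgfa lost its call with no minimum (0.44, limma adjusted p = 0.0689), with permutation for each gene (0.44, adjusted exact permutation p = 0.0701), and with no minimum and a pseudocount of 0.1 (0.49, limma adjusted p = 0.0622), and was 0.35 to 0.53 with a library left out. The fall of Pdgfc lost its call with no minimum (-0.47, limma adjusted p = 0.0797), median-of-ratios scaling (-0.40), quantile normalization (-0.38), no minimum with limma-voom (-0.57, limma adjusted p = 0.0543) and no minimum with a pseudocount of 0.1 (-0.56, limma adjusted p = 0.0677), and was -0.58 to -0.32 with a library left out. With a library left out, Pdgfra was -0.30 to 0.02 (0.02 without dKO replicate 1), Cspg4 0.14 to 0.30, Sp3 -0.18 to -0.11, the smooth muscle list held 1 to 2 calls and the R4 RGS list 2 to 5. Sp3 passed the threshold after rescaling to TPM (-0.20, limma adjusted p = 0.0496) and without CTR replicate 6 (-0.18, limma adjusted p = 0.0326). With no minimum, alone, with limma-voom or with a pseudocount of 0.1, 2 smooth muscle markers and 2 channel subunits were called, as more genes were tested. The other causes were not tested. Of the calls over all genes 38.5% were rises, and 50.9% with median-of-ratios scaling, which moved the median log2 fold change of all genes from -0.10 to -0.02.

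The replicate numbers of the groups did not pair the libraries throughout. The deviations of same-numbered libraries correlated at 0.44, 0.16, -0.04, 0.57, 0.01 and -0.11. Of the CTR libraries, 1 and 4 correlated best with their own number, and whether these were paired was not tested. With a replicate block, 2675 genes rose and 4280 fell, 4 smooth muscle markers were called, 2 in each direction, 9 fibroblast markers in place of 6 (3 higher, 6 lower), 16 co-receptor, processing and signalling genes in place of 14, 4 endothelial signals in place of 3, and 4 mesothelial markers in place of 5. The block changed no call of the 9 members it was fitted for, and Abcc9 was not among them.

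Depth limits Rgs5 and Abcc9 most, with as few as 31 and 36 fragments in a library.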

Other observations

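Other signals between endothelium and mural cells were read from a list of 10 genes. In dKO 2 rose, 1 fell and 7 did not pass the limma test, with a median log2 fold change of 0.28. The shares of all genes tested were 20.4% higher and 32.6% lower. Tgfb1, a growth factor that drives mural differentiation, rose from 15.6 ± 0.755 to 27.2 FPKM (0.76, limma adjusted p = 1.43e-06), and Tek, the receptor of the angiopoietins, from 5.82 to 8.52 FPKM (0.49, limma adjusted p = 0.0109). Hbegf, a ligand of the EGF receptor, fell from 6.88 to 4.77 FPKM (-0.46, limma adjusted p = 0.0444).

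From the R4 family of RGS genes, to which Rgs5 belongs, 9 were listed and all were in the table. Of these 6 passed the minimum, 4 rose and 2 did not pass the limma test. The shares of all genes tested, here and for the epithelial list below, were 20.4% higher and 32.6% lower. Rgs1, a gene of leukocytes, rose from 0.548 ± 0.239 to 2.05 FPKM (log2 fold change 0.94, limma adjusted p = 0.000533), next to Rgs5 at 1.16. Its level was under 1 FPKM in all CTR libraries (0.314 to 0.923 FPKM) and above it in all dKO libraries, so it entered the test only through the group where it was high, and the count of 4 includes it and Rgs5. Without dKO replicate 5 the family held 2 calls. Of 8 lung epithelial markers, 2 rose and 6 did not pass: Krt8, a keratin, from 27.8 to 62.0 FPKM (1.02, limma adjusted p = 0.00492) and Epcam, an adhesion molecule, from 5.74 to 7.6 FPKM (0.34, limma adjusted p = 0.0186). Sftpc, the most abundant of them, was 58.8 to 416 FPKM in CTR libraries and 114 to 307 FPKM in dKO libraries, which overlap, and the list summed to 121 to 559 FPKM in CTR and 222 to 406 FPKM in dKO.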
